A study of Aspergillus nidulans FGSC A4 with 21 samples.

Results

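Protein kinases, GTPases and the receptors and regulators that work with them were picked from the gene descriptions in the deposited tables of Aspergillus nidulans genes that responded to benzo(a)pyrene (BaP). A gene was taken when its description held the words protein kinase, GTPase, G-protein, protein serine/threonine kinase or signal transduction. Descriptions that also named farnesol, a transporter, a transcription factor, ribosomes, the nucleolus, mitochondria, lipids or an oxidoreductase were left out, as was the kinase gene *hogA*. The rule used no measured value, but the tables themselves hold only genes that the authors kept as differentially expressed. It gave 29 of the 2403 genes listed in at least 1 of the 3 tables. By description, 13 are protein kinases, 9 are GTPases or their regulators, 4 fall under G-protein signalling and 3 have another role in signal transduction.

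All groups came from the wild-type strain FGSC A4. Spores were grown into hyphae for 18 h with 1% glucose, washed, and moved to minimal medium with 0.1% glucose that held either 200 µM BaP, a polycyclic aromatic hydrocarbon dissolved in DMSO, or the same volume of DMSO alone. Polyadenylated RNA was sequenced from 3 BaP and 3 DMSO libraries at each of 6, 24 and 48 h, so that 18 libraries are used here, and the DMSO groups share the drop in glucose with the BaP groups. A further 3 samples, collected before BaP or DMSO was added, are not analysed here.

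Protein kinases attach phosphate to other proteins and so switch enzymes and transcription factors on or off. Small GTPases of the Ras, Arf and Rab families work as switches of another kind, active with GTP bound and inactive after it has been split to GDP, a step that GTPase-activating proteins speed up. G-protein coupled receptors sit in the plasma membrane and pass signals such as pheromones, nutrients or light inward, often through cyclic AMP and protein kinase A. In filamentous fungi these pathways are known for their part in tip growth, nutrient sensing, stress responses and the choice between growth and spore formation.

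Levels are given as RPKM, reads scaled by transcript length and by library size, so that genes can be compared on a per-length scale. Libraries carry the codes of the deposited columns, B16 to B18 (BaP) and D19 to D21 (DMSO) at 6 h, B22 to B24 and D25 to D27 at 24 h, and B28 to B30 and D31 to D33 at 48 h, and values are listed in that order. A gene was said to have passed the threshold when its log2 fold change of BaP over DMSO, from limma on log2(RPKM + 1), was over 1 or under -1 with a Benjamini-Hochberg adjusted p-value under 0.05 over all genes of the table. Changes are given as log2 fold changes with their standard error (SE), and levels with those of the BaP libraries before those of the DMSO libraries. Nothing in the labels says whether the libraries of a group came from separate cultures, so the p-values measure the spread between these libraries. The library sizes recovered from the values ran from 5.97 to 25.2 M reads (M, mega), with a median of 9.69 M. The paper states a greater depth per sample than this median, and the reason for the gap was not tested. The DMSO libraries were all larger than the BaP libraries at 6 h and again at 48 h.

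At 6 h, 6 of the 29 members were listed, 4 passed the threshold as higher with BaP and 1 as lower. At 24 h, 19 members were listed, 9 passed as higher and 6 as lower. At 48 h, 18 members were listed, 5 passed as higher and 11 as lower. Over all listed genes, 74% passed at 6 h (63.6% higher and 10.4% lower), 74.1% at 24 h (41.5% higher and 32.6% lower) and 83.9% at 48 h (40.9% higher and 43% lower). Because the authors had already chosen the listed genes on these libraries, passing the threshold is no independent evidence for any member. The median log2 fold change of the listed members was 1.12, 0.98 and -1.08 at 6, 24 and 48 h, beside 1.13, -0.19 and -0.56 for all listed genes. Positive and negative changes numbered 5 and 1, 10 and 9, and 7 and 11 for the members. For all listed genes they numbered 535 and 168, 748 and 755, and 756 and 773. At 24 h both lists split almost evenly by sign, so the medians do not show a rise particular to the members. The BaP and DMSO libraries did not overlap for 6 of 6, 17 of 19 and 18 of 18 members, against 99.3%, 93.7% and 99.7% of all listed genes.

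**Figure D1:**
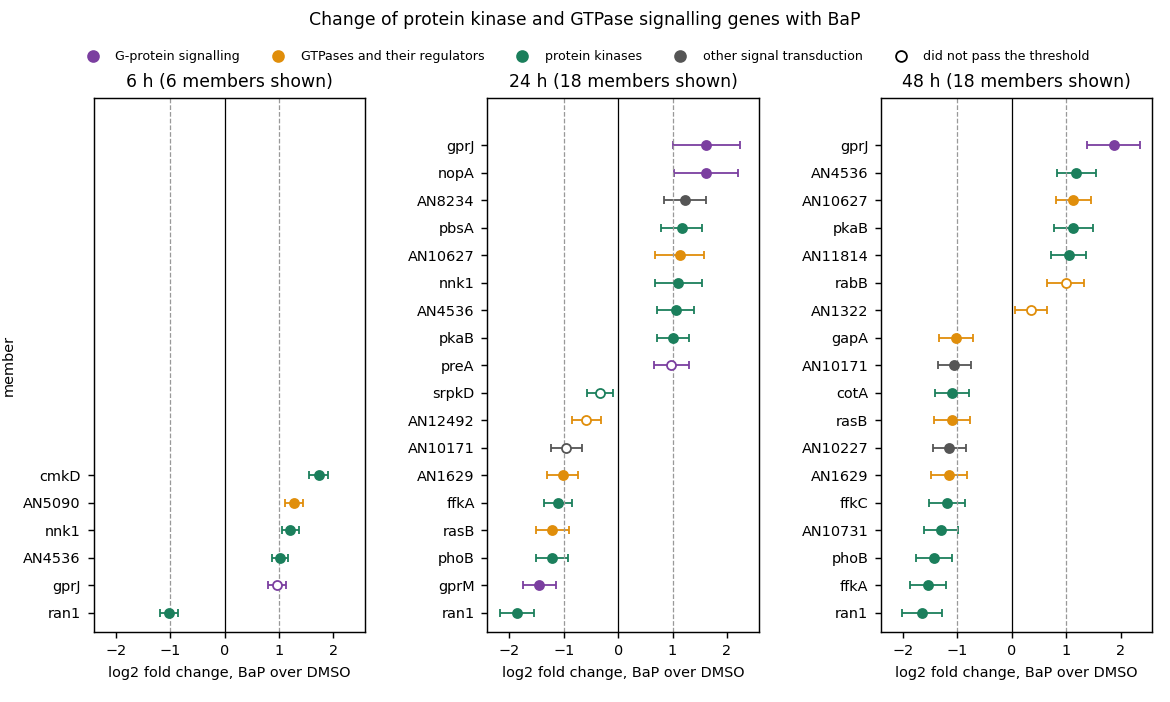
Log2 fold change of BaP over DMSO (x axis) for the listed members at 6, 24 and 48 h (18 of 19 shown at 24 h), with bars of 1 standard error from limma (3 BaP and 3 DMSO libraries). Filled points passed the threshold and dashed lines mark log2 fold changes of -1 and 1. At 24 h the members run from *gprJ* at 1.62 to *ran1* at -1.86, and at 48 h from *gprJ* at 1.87 to *ran1* at -1.65.

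The libraries of 24 h did not all lie equally far apart. D26 was the DMSO library nearest to the BaP mean for 17 of 19 members (81.4% of all listed genes), D27 was the farthest for 16 (74.3%), and B23 was the BaP library nearest to the DMSO mean for 15 (79.6%). With B22, B24 or D25 left out, limma called 0 of the 19 members at 24 h, and 1 gene in the whole table in each case. The smallest adjusted p of a member was then 0.0576, 0.0624 or 0.0626. An unadjusted p under 0.05 was left for 11, 13 and 12 members, and the share over all listed genes in these fits was not counted. With all libraries it was found for 17 of 19 members and for 1406 of 1503 listed genes, so these counts show nothing particular to the members. Without D27, 6 members passed (49.5% of all listed genes), without B23, 13 (72.6%), and without D26, 16 (82.4%). limma's voom on recovered reads, with all 6 libraries, called 18 of the 18 members that had reads, and 97.8% of all listed genes. Every call of a member at 24 h named in the following paragraphs is therefore lost without B22, B24 or D25, and it was not tested why. Genes outside the members that are named there at 24 h were not followed singly in these fits. At 48 h, D33 was the DMSO library nearest to the BaP mean for 16 of 18 members (89.1% of all listed genes) and D31 the farthest for 15 (62.5%). D33 was also the largest library by recovered size, with 25.2 M reads against 9.88 and 9.11 M for D31 and D32. Its size includes a factor of 2, applied because its reads were otherwise not whole. There 17 members passed without D33 (91.8% of all listed genes) and 9 without D31 (70.6%).

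**Figure D2:**
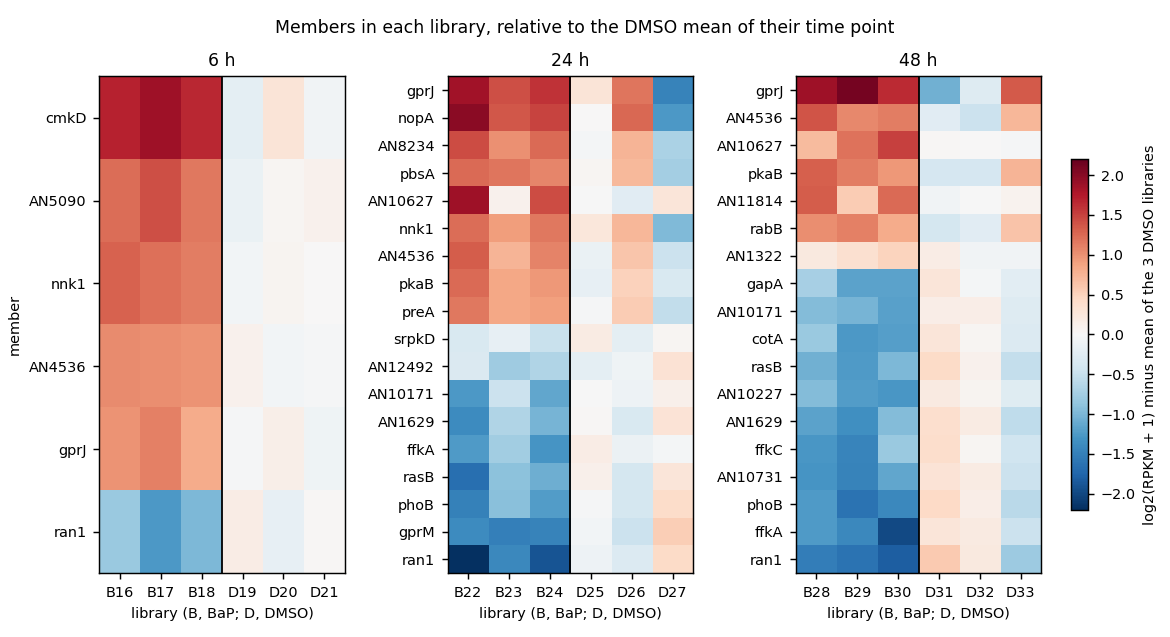
Each cell is log2(RPKM + 1) of a listed member (rows, 18 of 19 shown at 24 h) in a library (columns, B for BaP and D for DMSO) minus the mean of the 3 DMSO libraries of the same time point, red for higher and blue for lower. The members that are red in the BaP columns at 24 h are mostly red in D26 and blue in D27 as well, and at 48 h D33 lies nearer to the BaP columns than D31 and D32 do, for 16 of 18 members.

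The labels call the samples hyphae. Of 20 marker genes of asexual spores and their stalks, 8 were listed at 6 h. Of these, 6 passed as higher with BaP, beside 63.6% of all listed genes. The 6 included *catA*, a catalase of spores, at a log2 fold change of 1.70 ± 0.17 (SE, adjusted p = 1.49e-07) and *yA*, the laccase of the green spore pigment, at 1.46 ± 0.16 (SE, adjusted p = 2.42e-07). The summed level of the listed markers ran from 1163 to 1656 RPKM in the BaP libraries and from 494 to 558 RPKM in the DMSO libraries. The log2 fold change of the developmental regulator *abaA* was -0.65 ± 0.18 (SE, adjusted p = 0.00269) and did not pass, no listed marker had 0 RPKM in either group's mean, and *brlA* and *wetA* were not among the listed genes. At 24 h 1 marker was listed (*ivoB*, lower), with sums of 85.7 to 233 RPKM with BaP and 270.2 to 367 RPKM with DMSO, and at 48 h 3 were listed (*conF* higher), with 436 to 682 RPKM and 85.2 to 371 RPKM. Of 7 markers of sexual development, *nsdD*, a transcription factor, passed as lower at 24 h (sums of 10.8 to 36.2 RPKM with BaP and 61.0 to 90.5 RPKM with DMSO). At 48 h *nsdD* and *cpeA* passed as lower, with sums of 131 to 188 RPKM and 285 to 424 RPKM. The single marker listed at 6 h, *mutA*, did not pass, with 1.67 to 2.48 RPKM and 2.97 to 5.46 RPKM. The part of these cell types in the members' changes was not tested, and in RNA from whole cultures fewer cells of a type and less RNA per cell cannot be told apart. Over all listed genes, 41.5% passed as higher and 32.6% as lower at 24 h, and 40.9% and 43% at 48 h. The listed markers had already been kept by the authors as differing on these libraries, so sums that lie apart are no independent evidence.

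Of the genes under G-protein signalling, *gprJ* and *nopA* were higher with BaP and *gprM* was lower. *gprJ* (AN5720, chromosome V) is described as a putative G-protein coupled receptor with a PQ loop repeat, and it is 1 of 3 members listed at every time point. At 6 h it had 24.7, 26.9 and 21.7 RPKM in the BaP libraries and 11.7, 13.2 and 11.1 RPKM in the DMSO libraries. The groups were apart and the mean levels were 24.5 ± 2.61 and 11.99 ± 1.095 RPKM (SD, n = 3), but the log2 fold change of 0.97 ± 0.16 (SE, adjusted p = 1.88e-05) stayed just inside the limit. It passed without B18 (1.05) or D20 (1.04), and with a pseudocount of 0.1 or voom (1.02 each). At 24 h its BaP libraries had 62.96, 46.9 and 52.9 RPKM and its DMSO libraries 20.7, 39.4 and 5.45 RPKM. All BaP libraries were again above all DMSO libraries, D26 lay close below them and D27 far below, and the log2 fold change was 1.62 ± 0.61 (SE, adjusted p = 0.0363). It fell to 0.89 without D27, and without B23 its adjusted p was 0.0749. At 48 h the levels were 83.2, 98.96 and 71.7 RPKM with BaP and 10.1, 17.98 and 57.96 RPKM with DMSO, where D33 stood well above the other DMSO libraries. The difference at that time, 1.87 ± 0.49 (SE, adjusted p = 0.00388), passed whichever library was left out and was 2.55 without D33.

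*nopA* (AN3361, chromosome VI) encodes a rhodopsin-like protein of the bacterial type, a family of light-sensitive or opsin-related membrane proteins, and had the highest level of all members. At 24 h, the only time point at which it was listed, it had 4796, 3114 and 3407 RPKM with BaP and 1214, 2893 and 506 RPKM with DMSO. The groups did not overlap, although D26 came within reach of the lowest BaP library, and the log2 fold change was 1.61 ± 0.59 (SE, adjusted p = 0.0329). It was 0.98 without D27, and without B23 its adjusted p was 0.0643. With limma's trend and all libraries *nopA* did not pass, and it has no voom value because its reads were not recovered. *preA* (AN7743, also called *gprB*), the receptor that resembles the yeast pheromone receptor Ste3, had 13.2, 10.5 and 10.9 RPKM and 5.25, 8.35 and 3.34 RPKM at 24 h. Its groups were apart and its log2 fold change of 0.98 ± 0.32 (SE, adjusted p = 0.025) did not pass. It passed without B23 (1.04) or D26 (1.26), with a pseudocount of 0.1 (1.11) and with voom (1.12). *gprM* (AN6680), a putative receptor, went the other way, with 5.66, 5.14 and 5.27 RPKM under BaP and 15.6, 11.5 and 24.2 RPKM under DMSO. The BaP libraries lay close together and below every DMSO library, and the change was -1.45 ± 0.30 (SE, adjusted p = 0.0155).

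Among the small GTPases and their regulators, the Ras gene *rasB* and the Ras-inactivating gene *gapA* were lower with BaP, while an Arf-like GTPase was higher. *rasB* (AN5832, chromosome I) had 11.7, 20.2 and 17.9 RPKM in the BaP and 41.99, 29.5 and 47.01 RPKM in the DMSO libraries at 24 h. At 48 h it had 15.5, 13.5 and 16.3 RPKM and 45.4, 35.7 and 22.98 RPKM. Every BaP library was below every DMSO library at both times. The log2 fold changes were -1.21 ± 0.31 (SE, adjusted p = 0.0157) at 24 h and -1.10 ± 0.33 (SE, adjusted p = 0.00672) at 48 h, the latter -0.89 without D31. *gapA* (AN4998, chromosome III) encodes a putative Ras GTPase-activating protein that is needed for normal polarity and spore heads. At 48 h its levels were 20.04, 14.5 and 14.6 RPKM with BaP and 41.2, 33.03 and 28.97 RPKM with DMSO, without overlap. Its change of -1.03 ± 0.31 (SE, adjusted p = 0.00695) was near the limit and no longer passed without B29 (-0.95), B30 (-0.96) or D31 (-0.89).

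AN5090 (*arfB*, chromosome III), a predicted Arf GTPase of the family that recruits coats to membranes, was listed only at 6 h, with 235, 269 and 225 RPKM and 90.2, 103 and 106 RPKM. Here both groups were tight and far apart, and the change of 1.28 ± 0.16 (SE, adjusted p = 1.09e-06) passed whichever library was left out. *rabB* (AN3842, chromosome II) encodes the Rab5-type GTPase of early endosomes. At 48 h it had 427, 453 and 368 RPKM with BaP and 159.7, 176 and 322 RPKM with DMSO, so that D33 alone came near the BaP libraries. Its log2 fold change of 0.99 ± 0.34 (SE, adjusted p = 0.0128) did not pass with all libraries and passed without D33 (1.30) or B30 (1.07) and with voom (1.01). AN1629, described by a GTPase activator domain that binds zinc, had 8.05, 13.8 and 10.5 RPKM under BaP and 23.02, 17.6 and 27.9 RPKM under DMSO at 24 h. At 48 h the values were 8.52, 7.51 and 10.1 RPKM and 26.9, 23.6 and 13.7 RPKM. It was lower with BaP in every library at both times, with changes of -1.02 ± 0.29 (SE, adjusted p = 0.0175) and -1.16 ± 0.33 (SE, adjusted p = 0.00565). The earlier change was -0.87 without D27 and the later -0.98 without D31.

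Another 3 genes carry a GTP-binding domain in their descriptions. AN10627 (chromosome III) combines it with predicted roles in the cytoskeleton and microtubules, so it is not described as a signalling gene. At 24 h it had 73.7, 20.9 and 54.1 RPKM with BaP and 19.3, 16.3 and 23.5 RPKM with DMSO. B23 lay among the DMSO libraries, and the change was 1.13 ± 0.46 (SE, adjusted p = 0.0445), with an adjusted p of 0.0824 without D26. At 48 h its levels were 38.5, 54.6 and 67.8 RPKM and 23.7, 23.4 and 22.7 RPKM, apart from each other, and the change was 1.13 ± 0.31 (SE, adjusted p = 0.00506), or 0.95 without B30. AN12492, whose identifiers match 2 separate RefSeq genes, had 1.38, 0.727 and 0.876 RPKM with BaP and 1.54, 1.78 and 2.68 RPKM with DMSO at 24 h. Its level was low in all libraries, and its log2 fold change of -0.58 ± 0.26 (SE, adjusted p = 0.0624) did not pass. With a pseudocount of 0.1 in place of 1 it was -0.95 (adjusted p = 0.0322), and with voom it was -1.005 (adjusted p = 0.0263) and passed. AN1322 had 0.343, 0.483 and 0.6195 RPKM and 0.2899, 0.0899 and 0.0975 RPKM at 48 h, on as few as 2 reads in a library. Its log2 fold change of 0.35 ± 0.29 (SE, adjusted p = 0.248) did not pass, although the groups were apart. It passed with a pseudocount of 0.1, at 1.22 (adjusted p = 0.00671), and with voom, at 1.75 (adjusted p = 0.00481).

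Kinases made up 13 of the 29 members. At 6 h, 3 of 4 listed kinases passed as higher and 1 as lower, where 63.6% and 10.4% of all listed genes did. At 24 h, 4 of 8 passed as higher and 3 as lower, beside 41.5% and 32.6% of all listed genes. At 48 h, 3 of 9 passed as higher and 6 as lower, beside 40.9% and 43%.

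The HOG pathway is the stress-responsive MAP kinase cascade of fungi, in which a MAP kinase kinase activates the MAP kinase that acts on further kinases. Its member at 6 h was *cmkD* (AN4483, also *srkA*, chromosome III), described as a serine/threonine kinase of the HogA pathway with a role in stress and development. It had 340.3, 384 and 334 RPKM in the BaP libraries and 90.4, 129 and 99.7 RPKM in the DMSO libraries. No library of one group came near the other, and the log2 fold change of 1.73 ± 0.17 (SE, adjusted p = 1.07e-07), a mean of 353 ± 27.5 against 106 ± 20.1 RPKM (SD, n = 3), was the largest of the 6 members listed at 6 h. *pbsA* (AN0931, called *pbs2* in RefSeq), the MAP kinase kinase of the pathway, was listed only at 24 h, with 85.4, 82.1 and 76.1 RPKM and 36.6, 58.98 and 20.7 RPKM. All 3 BaP libraries were alike and above D26, the highest DMSO library. The change was 1.17 ± 0.38 (SE, adjusted p = 0.0237), with 0.79 without D27 and an adjusted p of 0.0532 without B23. Outside the members, *hogA* itself was listed at 24 h only, at 1476 ± 228 against 693 ± 445 RPKM (SD, n = 3) and a log2 fold change of 1.30 ± 0.49 (SE, adjusted p = 0.0356). The phosphatase gene *ptpA* of the same pathway passed as higher at 6 h with 1.07 ± 0.16 (SE, adjusted p = 6.06e-06) and at 24 h with 1.17 ± 0.43 (SE, adjusted p = 0.0333). A gene for a histidine kinase with a phosphotransfer domain, *hk-8-2*, passed as higher at 6 h with 2.03 ± 0.29 (SE, adjusted p = 3.59e-06). Whether it acts in this pathway was not tested. The genes with like symbols *hk-8-1*, at 1.73 ± 0.16 (SE, adjusted p = 4.82e-08), and *hk-8-3*, at 2.32 ± 0.19 (SE, adjusted p = 2.48e-08), also passed as higher at 6 h. Of all listed genes, 63.6% did.

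*pkaB* (AN4717, chromosome III) encodes the second catalytic subunit of protein kinase A, the kinase that cyclic AMP activates; its loss alone has no described phenotype, but loss together with *pkaA* is lethal. At 24 h it had 77.6, 58.4 and 62.9 RPKM with BaP and 28.4, 46.1 and 25.3 RPKM with DMSO. At 48 h the levels were 81.8, 70.9 and 62.8 RPKM and 24.5, 24.6 and 54.5 RPKM. The BaP libraries were higher throughout, with D26 and D33 the DMSO libraries closest to them. Changes of 1.01 ± 0.30 (SE, adjusted p = 0.0187) and 1.13 ± 0.36 (SE, adjusted p = 0.00878) passed. The value at 24 h was 0.84 without D27, and that at 48 h was 0.94 without D31 and 0.95 without D32.

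Genes for kinases known from yeasts for nutrient signalling and the choice between growth and meiosis moved in both directions. AN4536 (*psk1*, chromosome III) is named for the PAS kinases, which in Saccharomyces cerevisiae restrain glycogen synthesis, and was listed at every time point. At 6 h it had 42.6, 42.2 and 41.2 RPKM with BaP and 21.5, 19.2 and 19.9 RPKM with DMSO. These were the most even BaP values among the members at 6 h, and the change was 1.02 ± 0.15 (SE, adjusted p = 6.87e-06), or 0.99 without D20. At 24 h the values were 80.6, 53.8 and 68.1 RPKM and 28.4, 48.9 and 22.4 RPKM, and at 48 h 80.3, 64.1 and 66.8 RPKM and 25.2, 21.6 and 50.6 RPKM. D26 and D33 again came closest to the BaP libraries, and the changes were 1.06 ± 0.34 (SE, adjusted p = 0.0237) and 1.19 ± 0.35 (SE, adjusted p = 0.00683), or 0.82 without D27 and 0.95 without D32. *nnk1* (AN1097, chromosome VIII), named for a S. cerevisiae kinase tied to nitrogen metabolism, had 94.2, 88.6 and 83.5 RPKM with BaP and 36.2, 39.1 and 37.9 RPKM with DMSO at 6 h. That change of 1.21 ± 0.15 (SE, adjusted p = 1.27e-06) passed whichever library was left out. At 24 h it had 171, 138 and 164 RPKM and 86.1, 120.3 and 36.2 RPKM, a wide spread among the DMSO libraries, and a change of 1.11 ± 0.43 (SE, adjusted p = 0.0399). The latter fell to 0.62 without D27, with an adjusted p of 0.0792, and had an adjusted p of 0.0706 without B23.

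*ran1* (AN4935, chromosome III) carries the name of the Schizosaccharomyces pombe kinase that keeps cells from entering meiosis, and was the only one of the 3 members listed at every time point that was lower with BaP. At 6 h it had 328, 241 and 292 RPKM with BaP and 647, 510.0 and 588 RPKM with DMSO. Its change of -1.02 ± 0.17 (SE, adjusted p = 2.03e-05) was -0.90 without B17 and -0.94 without D19. At 24 h it had 148, 268 and 190.2 RPKM and 662, 578 and 955 RPKM, and at 48 h 214, 198 and 175 RPKM and 913, 717 and 354 RPKM. No BaP library reached any DMSO library at any of the 3 times, and at 48 h D33 was the DMSO library nearest to them. The mean fell from 732 ± 198 RPKM with DMSO to 202 ± 61.2 RPKM with BaP (SD, n = 3) at 24 h, and the change was -1.86 ± 0.32 (SE, adjusted p = 0.0155). At 48 h it was -1.65 ± 0.37 (SE, adjusted p = 0.00223), and -2.05 without D33. At both times it was the largest fall of the listed members.

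**Figure D3:**
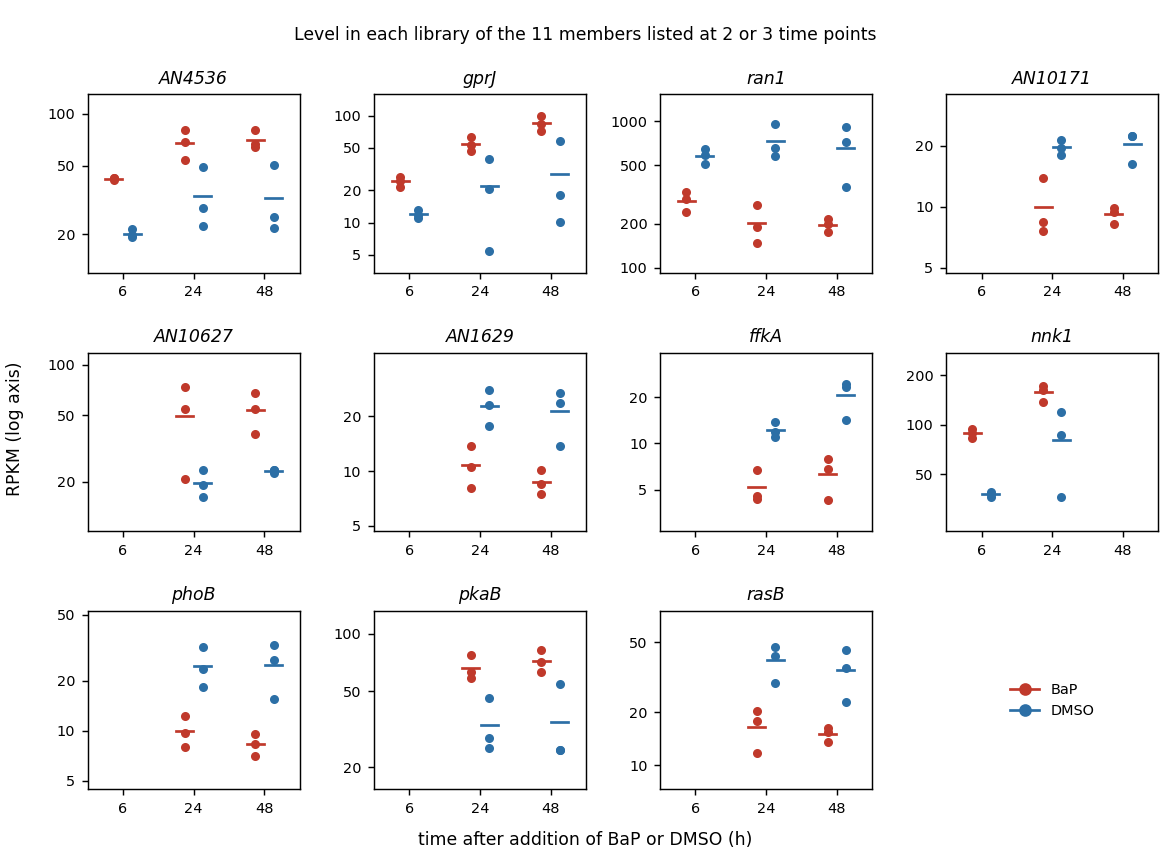
RPKM on a log axis in each library (points) of the 11 members listed at 2 or 3 time points, against the time after addition of BaP (red) or DMSO (blue), with the group mean as a short line. Blank positions are time points at which the gene was not listed. The groups overlap only for AN10627 at 24 h, and *ran1* lies lower with BaP at all 3 times. Of all listed genes, 99.3%, 93.7% and 99.7% had no overlap at 6, 24 and 48 h.

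Of the kinases of growth and division, *phoB* and *cotA* were lower with BaP. *phoB* (AN1867, chromosome VII) encodes a putative cyclin-dependent kinase that cannot be lost together with its relative *phoA*. At 24 h its levels were 8.003, 12.3 and 9.64 RPKM with BaP and 23.8, 18.3 and 32.1 RPKM with DMSO. At 48 h they were 9.52, 7.098 and 8.31 RPKM and 32.9, 26.7 and 15.6 RPKM. The DMSO libraries were spread more widely than the BaP libraries but stayed above them, and the changes were -1.21 ± 0.29 (SE, adjusted p = 0.0155) and -1.43 ± 0.34 (SE, adjusted p = 0.00268). The change at 48 h passed whichever library was left out. *cotA* (AN5529, chromosome V), an essential NDR kinase with a role in cell polarity, was listed at 48 h with 24.4, 17.6 and 18.1 RPKM and 52.5, 44.8 and 34.9 RPKM. Its groups were apart and its change of -1.10 ± 0.31 (SE, adjusted p = 0.00555) was -0.96 without D31.

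Of the remaining kinases, whose descriptions give only a kinase domain, *ffkA*, *ffkC* and AN10731 were lower with BaP and AN11814 was higher. *ffkA* (AN7986, chromosome II) had 4.57, 6.705 and 4.34 RPKM with BaP and 13.7, 11.04 and 11.8 RPKM with DMSO at 24 h. At 48 h it had 7.87, 6.85 and 4.31 RPKM and 24.2, 23.1 and 14.1 RPKM. BaP libraries were lower than DMSO libraries throughout, with changes of -1.10 ± 0.25 (SE, adjusted p = 0.0155) and -1.54 ± 0.34 (SE, adjusted p = 0.0021), and the change at 48 h passed whichever library was left out. *ffkC* (AN2373, chromosome VII) had 2.36, 1.999 and 3.65 RPKM and 9.76, 7.5 and 5.03 RPKM at 48 h. Its change was -1.19 ± 0.33 (SE, adjusted p = 0.00527) and -0.99 without D31. *srpkD* (AN10325) was close to the floor at 24 h, with 0.174, 0.308 and 0.0508 RPKM and 0.674, 0.271 and 0.512 RPKM. D26 fell within the range of the BaP libraries, 1 library had 1 read, and the change of -0.33 ± 0.24 (SE, adjusted p = 0.207) did not pass. With a pseudocount of 0.1 it was -1.13 (adjusted p = 0.0294) and with voom -1.48 (adjusted p = 0.0253), and both passed. AN10731 and AN11814, both on chromosome V, span 446 and 459 bases in the tables, the shortest of the members. At 48 h AN10731 had 14.4, 12.7 and 16.1 RPKM with BaP and 45.5, 41.9 and 26.2 RPKM with DMSO, a change of -1.31 ± 0.32 (SE, adjusted p = 0.00311) that passed whichever library was left out. AN11814 had 5.11, 2.57 and 4.796 RPKM and 1.32, 1.44 and 1.56 RPKM, on as few as 6 reads in a library. Its change of 1.04 ± 0.32 (SE, adjusted p = 0.00749) was 0.90 without B28 and 0.94 without B30.

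The last 3 members act on signalling without being kinases or GTPases by description. AN10171 (chromosome VIII) has orthologs that restrain Ras and TOR signalling and take part in the response to amino acid starvation. At 24 h it had 7.59, 13.9 and 8.38 RPKM with BaP and 19.6, 18.04 and 21.3 RPKM with DMSO, and at 48 h 9.92, 9.42 and 8.21 RPKM and 22.4, 22.3 and 16.3 RPKM. The groups were apart both times. The change of -0.95 ± 0.28 (SE, adjusted p = 0.0191) at 24 h did not pass with all libraries but did without B23 (-1.20) or D26 (-1.01) and with a pseudocount of 0.1 or voom (-1.02 each), and that of -1.06 ± 0.30 (SE, adjusted p = 0.00558) at 48 h passed, though without B30, D31 or D32 it was -0.98 each time. AN10227 (chromosome VII), whose orthologs act in mating signals and filamentous growth, had 7.83, 6.29 and 5.99 RPKM and 18.5, 16.8 and 13.2 RPKM at 48 h. Its change of -1.15 ± 0.30 (SE, adjusted p = 0.00403) passed whichever library was left out. AN8234 (chromosome II), with a predicted protein phosphatase inhibitor domain, had 166, 123 and 146 RPKM with BaP and 58.8, 103 and 37 RPKM with DMSO at 24 h. D26 was the DMSO library nearest to the BaP libraries, and the change was 1.23 ± 0.38 (SE, adjusted p = 0.0222), or 0.87 without D27.

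Whether the effect of BaP differed between time points was tested with an interaction term in limma for the genes listed at both times. The 18 members listed at 1 time point could not be tested. Genes listed at both times had been kept by the authors as changed at both, a choice that favours finding no difference. No member passed an adjusted p of 0.05: 0 of 4 between 6 and 24 h, 0 of 10 between 24 and 48 h and 0 of 3 between 6 and 48 h, and no member had an unadjusted p under 0.05. Over all genes listed at both times the term passed for 0% (0 of 374, 7 with an unadjusted p under 0.05), 0% (0 of 915, 17 unadjusted) and 1.24% (3 of 241, 15 unadjusted). The lowest unadjusted p of a member was 0.0662, for *ran1* between 6 and 24 h, where the effect at 24 h minus that at 6 h was -0.84 ± 0.42 (SE). For *gprJ* the effect at 48 h minus that at 6 h was 0.90 ± 0.64 (SE, adjusted p = 0.876). Without D33 it was 1.58 ± 0.30 (adjusted p = 0.000269), and that of *ran1* was -1.03 ± 0.27 (adjusted p = 0.00317), so that 2 of 3 members passed, as did 150 of all 241 genes. Between 24 and 48 h the differences of the 10 members ran from -0.44 for *ffkA* to 0.25 for *gprJ*, with standard errors from 0.40 to 0.86. A miss of the threshold does not show that the effects were alike at such errors.

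**Figure D4:**
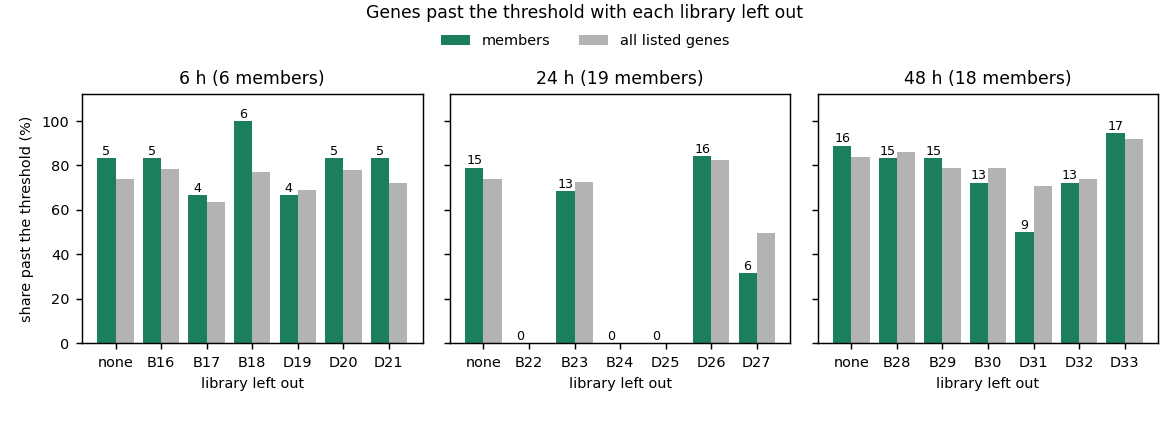
Share of the listed members (green, with their number above) and of all listed genes (grey) that passed the threshold with all libraries (none) and with each library left out in turn, at 6, 24 and 48 h. At 24 h no member passed without B22, B24 or D25, and at 48 h the number ran from 9 to 17 of 18.

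Other signalling genes were gathered by a list of gene symbols and words, which did not take in *hk-8-1* and *hk-8-3*. The list held 5 genes at 6 h, 10 at 24 h and 12 at 48 h. Several of these entered through parts of words in their descriptions, such as the cAMP in camptothecin, and matching whole words, a change made after the genes had been seen, left 3, 4 and 3. At 6 h, 3 of 3 passed as higher, beside 63.6% of all listed genes. At 24 h, 3 of 4 passed as higher, beside 41.5%, and AN6162, predicted to process a pheromone precursor, had a log2 fold change of -0.88 ± 0.28 (SE, adjusted p = 0.0222) and did not pass. At 48 h, 1 of 3 passed as higher and 2 as lower, beside 40.9% and 43%, and of the lower ones AN4055 is an acid phosphatase gene that entered by sharing the symbol *phoA*. With the parts of words kept, 5 of 5 passed as higher at 6 h, 7 of 10 as higher and 2 as lower at 24 h, and 5 of 12 as higher and 6 as lower at 48 h, to be read beside the same shares of all listed genes and 32.6% lower at 24 h. AN11055, whose orthologs regulate protein phosphatase type 1, was the only one of the whole-word genes listed at all 3 times, with log2 fold changes of 1.05 ± 0.17 (SE, adjusted p = 1.04e-05), 1.06 ± 0.31 (SE, adjusted p = 0.0183) and 1.27 ± 0.35 (SE, adjusted p = 0.00512).

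The members lay on all 8 chromosomes, with 8 on chromosome III, 5 each on V and VII, 4 on VIII, 3 on II, 2 on I and 1 each on IV and VI. The closest pair on 1 chromosome, AN5090 and AN10627 on III, were 37.9 kb apart. AN5090 was listed only at 6 h and AN10627 only at 24 and 48 h.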

How the data were processed

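Single-end RNA-seq libraries were compared as BaP against DMSO at 6, 24 and 48 h. For each time point the authors deposited 1 table of the genes they kept as differentially expressed, with 6 values per gene that are read here as RPKM; the unit is not named in the tables and was inferred, because within a gene the values are whole reads after scaling by library size and length (702 of 703, 1501 of 1503 and 1521 of 1529 genes were whole within 0.001 reads; *nopA* at 24 h was not). The submitters' processing notes name FastQC, Subread, featureCounts, Cufflinks and limma without versions. The aligner settings, strand setting and genome build are not given in the sources used here, so overlapping genes may share reads, and positions are those of the tables. The tables also hold the authors' own comparison (mean expression, log2 fold change, raw and adjusted p-values), which were not used. All per-sample columns could be assigned to a group by name, none to a replicate number.

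Each time point was tested on log2(RPKM + 1), without a filter, in limma (version 3.58.1, under R 4.3.3) over all listed genes. A pseudocount of 1 understates changes of low genes. Effects were compared between time points with a treatment by time interaction over the genes listed at both. The code was tested on simulated data. The members and lists were chosen with earlier results of these data known. The rule for named genes took every member with a symbol, every member listed at 2 or 3 time points, and the 3 largest rises and falls past the threshold at each time point; AN8234, AN10227, AN10731, AN11814, AN12492 and AN1322 are outside it and are also named. The result of 1 member listed at 24 h is not reported here, and that member is counted in the totals only. *gapA* was counted with the GTPase regulators, since its description holds the letters of G protein only inside a longer phrase. Alternatives were a pseudocount of 0.1, a mean of at least 1 RPKM, an adjusted p under 0.01, limma's trend and arrayWeights, each library left out, and, added after seeing the data, voom on the recovered reads. Names of 28 of 29 members were matched to RefSeq genes (ASM1142v1). The median listed gene had 470, 424 and 506 reads in its higher group at 6, 24 and 48 h. Tables and plots were made with pandas 2.3.3, matplotlib 3.10.9 and numpy 2.4.6 under Python 3.11.15.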

Additional observations from a re-analysis of the deposited data

How the results depend on the processing

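Of 513 values of the 43 gene and time results under the alternatives, 0 changed sign. The number of members past the threshold was 5 at 6 h, 15 at 24 h and 16 at 48 h. With an adjusted p under 0.01 limma called 0 members at 24 h. The smallest adjusted p of a member there was 0.0155, a value that *nsdD*, outside the members, shared. An unadjusted p under 0.05 was found for 17 of 19 members and for 1406 of 1503 listed genes. At the usual limit voom called 18 of 18 members at 24 h (97.8% of all listed genes). Leaving out 1 library gave 4 to 6 members at 6 h, 0 to 16 at 24 h and 9 to 17 at 48 h; the counts of 0 came without B22, B24 or D25, the count of 6 at 24 h without D27 and that of 9 without D31. A pseudocount of 0.1 gave 6, 18 and 17 members (95.2%, 96.2% and 95.3% of all listed genes) and voom 6, 18 and 18 (98.1%, 97.8% and 95.9%), while limma's trend gave 5, 14 and 16 (74%, 73.9% and 83.8%). arrayWeights gave 4, 14 and 16 (68.8%, 78.4% and 91.8%), but its weights stopped short of their convergence tolerance. The interaction between 6 and 48 h called 0 to 2 members without 1 library, 2 of them without D33. The other interaction tests called 0 members without any 1 library. No paired analysis was possible because the columns carry no replicate numbers. No protein or promoter sequences were used here. *srpkD* and AN1322, which had as few as 1 and 2 reads in a library, did not pass with a pseudocount of 1 and passed with 0.1 and with voom on the same reads. Genes outside the tables were not analysed here. With 3 libraries in a group, single outlying libraries were not tested.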
